A study of Homo sapiens with 12 samples.

Results

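The genes described here are 10 members of the Notch pathway: the receptors NOTCH1 and NOTCH2, the ligands DLL1, DLL3 and JAG1, and the transcriptional repressors HES1, HES4, HES5, HES6 and HEY1. They were taken by symbol, and all 10 were found among the 59050 gene symbols of the count table. Neural progenitor cells (NPC) were compared with the human embryonic stem cell line HUES8 (ESC) from which they were made, both wild type, in 12 libraries. NPC had received neural induction medium for 7 days with LDN193189 at 0.05 uM, which blocks BMP receptors, and SB431542 at 2.5 uM, which blocks activin and Nodal receptors and was left out for the last 2 days. ESC were kept in mTeSR1 medium. In each state rRNA-depleted total RNA and ribosome-bound RNA were each sequenced in 3 libraries. All cells derive from 1 line, and the labels do not say whether the libraries of a state came from separate cultures, so p-values measure the spread between these libraries, which may be technical.

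Notch signalling works between neighbouring cells. A ligand of the Delta or Jagged family on a cell binds a Notch receptor on its neighbour, the receptor is cut by ADAM proteases and then by gamma-secretase, and its freed intracellular domain joins the DNA-binding protein RBPJ and MAML coactivators in the nucleus. Among the direct target genes of this complex are HES and HEY repressors, which in the neural tube hold progenitors undifferentiated by repressing proneural genes such as NEUROG2. Proneural factors in turn raise DLL1, so that cells that start to differentiate signal to their neighbours.

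The promoters of the HES genes are shown because HES1, HES4 and HES5 were higher in NPC RNA while HES6 was lower. RefSeq promoter sequences (GRCh38.p14) matched 7 of the 10 members, all but DLL1, DLL3 and HEY1. Each run below covers the 250 bases before the annotated start of the gene, read 5′ to 3′ on the gene's strand. They lie at chr3:194135898-194136147 (plus strand), chr1:1000098-1000347 (minus strand), chr1:2530264-2530513 (minus strand) and chr2:238240039-238240288 (minus strand). Capitals mark the letters GTGGGAA, the core of the known RBPJ binding site, or their reverse complement.
HES1: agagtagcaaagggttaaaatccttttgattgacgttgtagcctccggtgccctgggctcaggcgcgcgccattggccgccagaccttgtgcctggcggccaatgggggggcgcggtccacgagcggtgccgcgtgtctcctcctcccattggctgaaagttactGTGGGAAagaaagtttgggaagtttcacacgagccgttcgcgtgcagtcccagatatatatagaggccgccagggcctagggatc
HES4: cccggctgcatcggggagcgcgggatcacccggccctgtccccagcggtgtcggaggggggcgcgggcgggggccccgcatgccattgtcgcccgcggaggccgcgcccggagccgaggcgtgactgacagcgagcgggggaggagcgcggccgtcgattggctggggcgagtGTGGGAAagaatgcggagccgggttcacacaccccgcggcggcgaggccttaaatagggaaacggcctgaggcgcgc
HES5: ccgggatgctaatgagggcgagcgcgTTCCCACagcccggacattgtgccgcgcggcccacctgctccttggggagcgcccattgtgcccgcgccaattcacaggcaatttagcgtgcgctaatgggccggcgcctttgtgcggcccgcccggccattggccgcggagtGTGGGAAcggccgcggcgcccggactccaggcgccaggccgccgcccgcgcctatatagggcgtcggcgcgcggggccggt
HES6: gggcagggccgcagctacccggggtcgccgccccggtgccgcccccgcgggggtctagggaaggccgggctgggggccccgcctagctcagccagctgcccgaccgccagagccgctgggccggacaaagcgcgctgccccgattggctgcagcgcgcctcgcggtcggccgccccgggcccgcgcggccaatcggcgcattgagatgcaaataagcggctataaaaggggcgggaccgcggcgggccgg

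The letters GTGGGAA were searched on both strands in the same 250-base window of all 35116 promoters of the table, and 5.43% held them. HES1 and HES4 held 1 copy each and HES5 held 2, whereas the windows of HES6, NOTCH1, NOTCH2 and JAG1 held none. Among the other family genes HEY2, lower in NPC RNA (log2 −2.94), held 1 copy, HEYL, higher (2.68), held 1, and HES2, higher (1.56 ± 0.19, adjusted p = 2.78e-04), held none. In the set, the copy on the gene's strand began 85 bases before the start in HES1, 77 bases in HES4 and 81 bases in HES5. In these 3 promoters the letters ATTGG, which are CCAAT on the other strand, began 17, 16 and 14 bases ahead of it. With the window set after these positions had been seen, GTGGGAA on the gene's strand beginning 70 to 90 bases before the start was present in 0.228% of promoters. GTGGGAA so placed, with ATTGG beginning in the 20 bases before it, was found in 5 of the 35116 promoters, namely HES1, HES4, HES5, KAZALD1 and LOC124901790. KAZALD1 was lower in NPC RNA (log2 −1.05 ± 0.20, adjusted p = 0.0030), unlike the HES genes, and LOC124901790 was not tested. CCAAT alone, on either strand, was in 32.0% of promoters, and the HES6 window held 2 copies. The N box CACNAG, a sequence that HES proteins are known to bind, was in 32.0% of promoters and occurred 3 times in HES1 and in none of the HES4, HES5 and HES6 windows. A match of letters does not show binding, and no binding data were used here.

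RNA libraries held 26076504 to 35117370 counts in NPC and 19529738 to 26028174 in ESC. Ribosome-bound libraries were shallower, at 3274208 to 4451196 counts in NPC and 2422756 to 3606539 in ESC. Levels are given as CPM, the count of a gene relative to a library size adjusted by TMM within each assay, and CPM is compared between libraries and not between genes, since transcript lengths were not used. The states carried their labels' markers: of 8 neural progenitor markers 7 were higher in NPC RNA and none was lower, and of 6 pluripotency markers 5 were lower, all but LIN28A. The 7 higher include HES5, itself a member of the set and so no separate evidence of the state. On ribosomes 5 of the 8 were higher, HES5 among them, and none was lower, while all 6 pluripotency markers were lower. Over all genes tested, 26.4% were higher and 26.2% lower in RNA, and 31.6% and 30.3% on ribosomes. In RNA, LHX2 passed the filter on low counts through its NPC libraries and GDF3 through its ESC libraries. RNA_ESC replicate 3 correlated with the other ESC RNA libraries at 0.980 and 0.976 (Pearson r of log2 CPM across genes, which are not independent), against 0.996 between those. RIBO_ESC replicate 2 correlated at 0.927 and 0.940 with the other ESC ribosome-bound libraries, against 0.976 between those. Member calls that change without either library, and list counts that move with it by over 1.5 times, are given both ways. In these bulk samples a change in the share of cells that express a gene and a change in the RNA per cell cannot be told apart.

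Total RNA of the pathway was higher in NPC for most of the set: both receptors, DLL1, JAG1, HES1, HES4 and HES5 were higher, DLL3 and HES6 were lower, and HEY1 did not pass the test. Thus 9 of 10 members changed, where 52.6% of all genes tested did. Of the members 7 were higher, where 26.4% of all 18631 genes tested were, and 2 were lower, where 26.2% were. On ribosomes 9 of 10 changed, where 61.8% of 12250 genes did, 6 being higher, where 31.6% were, and 3 lower, where 30.3% were. The median log2 fold change of the members was 1.38 in RNA and 1.64 on ribosomes, beside 0.03 and −0.01 over all genes tested. All 10 members passed the filter on low counts in both assays. HES4 and HES5 passed only through their NPC libraries, which selects for a higher NPC level, so the counts and medians are descriptions. NPC and ESC libraries did not overlap for 9 members in RNA, where they did not for 62.8% of all genes tested, and for all 10 on ribosomes, where they did not for 67.1%. In this and all that follows, the test is edgeR's quasi-likelihood test with Benjamini-Hochberg adjustment over all genes tested, and a change was called at an adjusted p under 0.05.

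**Figure D1:**
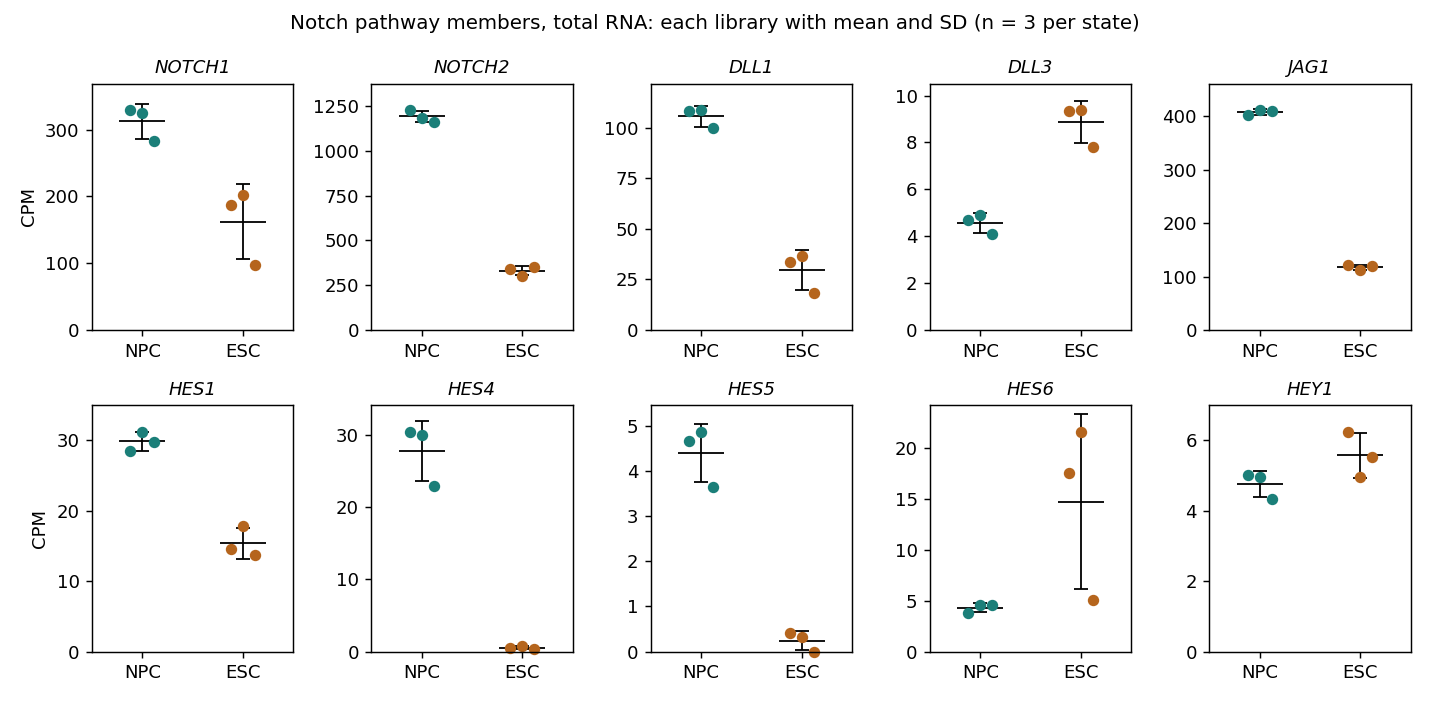
Total RNA level in CPM (linear axis from 0, its own scale per gene) of the 10 members in the 3 NPC and 3 ESC libraries, with bars for the mean and SD. The states are apart for every gene but HEY1, where the ESC library at 4.95 CPM lies among the NPC libraries, and HES6 has an ESC library at 5.06 CPM just above the NPC libraries.

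The receptors were higher in NPC in both assays. NOTCH1, the receptor most studied in neural stem cells, had 329, 324 and 283 CPM in NPC RNA, against 187, 201 and 97.7 CPM in ESC RNA. The ESC library at 97.7 CPM is RNA_ESC replicate 3, and without it the RNA difference was smaller, at 0.69 on the log2 scale in place of 0.95 ± 0.24 (SE; adjusted p = 0.0123). On ribosomes NOTCH1 had 661, 598 and 664 CPM in NPC and 178, 261 and 186 CPM in ESC, a 3.08-fold difference (log2 1.62 ± 0.22, adjusted p = 7.37e-05). NOTCH1 overlaps the long noncoding RNA gene LOC124902310 by 16105 bases, and that gene was not tested in either assay. NOTCH2, a receptor also expressed by radial glia, had 1228, 1186 and 1164 CPM in NPC RNA and 338, 301 and 350.3 CPM in ESC RNA, 3.62-fold higher with little spread (log2 1.86 ± 0.09, adjusted p = 2.57e-06). Its ribosome-bound level was 535, 471 and 533 CPM in NPC, against 158, 202 and 129 CPM in ESC (log2 1.66 ± 0.22, adjusted p = 6.43e-05). NOTCH2 shares sequence with copies on the same chromosome, of which NOTCH2NLA was counted at 1.47 ± 0.22 CPM in NPC RNA and 0.404 ± 0.144 CPM in ESC RNA (SD, n = 3 each), so reads of such copies can have been split between them.

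The ligands moved apart. DLL1 and JAG1, which activate receptors on neighbouring cells, were higher in NPC, and DLL3, a Delta relative that does not activate receptors on neighbouring cells and acts within the cell, was lower. DLL1 RNA was at 108, 109 and 99.8 CPM in NPC and 33.8, 36.7 and 18.3 CPM in ESC, 3.56-fold higher (log2 1.83 ± 0.24, adjusted p = 4.15e-04). The lowest ESC value again came from RNA_ESC replicate 3, without which the difference was 1.58. On ribosomes DLL1 had 228, 206 and 201 CPM in NPC and 16.3, 25.6 and 18.9 CPM in ESC, a 10.5-fold difference (log2 3.40 ± 0.23, adjusted p = 5.60e-07). The gene overlaps the start of FAM120B by 376 bases, and FAM120B was higher by 0.32 ± 0.11 in RNA (adjusted p = 0.0430), with 0.47 ± 0.23 on ribosomes (adjusted p = 0.0944). JAG1 had the tightest values of the ligands, with 402, 412 and 409.6 CPM in NPC RNA and 121, 112 and 119 CPM in ESC RNA (log2 1.80 ± 0.08, adjusted p = 2.05e-06). Ribosome-bound JAG1 was at 448, 353 and 352 CPM in NPC, against 86.1, 144 and 91.7 CPM in ESC (log2 1.85 ± 0.24, adjusted p = 5.74e-05). DLL3 RNA was low in both states, at 4.70, 4.92 and 4.07 CPM in NPC and 9.36, 9.38 and 7.82 CPM in ESC, 1.94-fold lower (log2 −0.96 ± 0.15, adjusted p = 0.00129). On ribosomes DLL3 had 17.4, 16.0 and 17.8 CPM in NPC and 47.4, 95.8 and 62.0 CPM in ESC, 3.98-fold lower (log2 −1.99 ± 0.27, adjusted p = 5.97e-05). The highest ESC value is that of RIBO_ESC replicate 2, and the states stayed apart without it.

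Among the repressors HES4 and HES5 had the largest fold changes of the set, at low ESC levels. HES4, a relative of HES1, had 30.4, 29.9 and 22.9 CPM in NPC RNA and 0.511, 0.719 and 0.307 CPM in ESC RNA, from 2650 counts in NPC and 34 in ESC. Its log2 difference was 5.71 ± 0.27 (adjusted p = 2.18e-06), or 52.4-fold. Ribosome-bound HES4 was at 52.3, 36.5 and 46.7 CPM in NPC and 2.51, 1.30 and 0.809 CPM in ESC (log2 4.85 ± 0.36, adjusted p = 9.21e-07). HES5, the Notch effector most specific to neural progenitors, had 4.66, 4.87 and 3.66 CPM in NPC RNA and 0.409, 0.319 and 0 CPM in ESC RNA. These rest on 421 counts in NPC and 16 in ESC, a ratio of 17.6 with a 95% interval of 10.7 to 31.1, and the log2 difference was 4.12 ± 0.48 (adjusted p = 2.24e-04). The library at 0 counts is RNA_ESC replicate 3, in which up to 0.153 CPM could have been missed, and without it the difference was 3.60. On ribosomes HES5 had 9.68, 14.3 and 11.2 CPM in NPC and 0.628, 0.434 and 0 CPM in ESC, from 130 counts in NPC and 3 in ESC. That ratio was 36.1 with a 95% interval of 12.1 to 177 (adjusted p = 2.21e-05). The fitted log2 difference of ribosome-bound HES5 was 5.01 ± 0.58, with 5.84 without RIBO_ESC replicate 1 and 4.32 without RIBO_ESC replicate 3. Both intervals reflect the counting of reads alone, which may be copies of the same molecule.

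HES1, which is expressed in many tissues and oscillates in neural progenitors, changed less than HES4 and HES5 did. Its RNA was at 28.5, 31.2 and 29.8 CPM in NPC and 14.5, 17.9 and 13.7 CPM in ESC, 1.94-fold higher (log2 0.96 ± 0.14, adjusted p = 7.71e-04). Ribosome-bound HES1 had 29.4, 23.6 and 27.8 CPM in NPC and 20.4, 18.6 and 17.5 CPM in ESC. These did not overlap, but the difference of 0.51 ± 0.21 just missed the threshold (adjusted p = 0.0526), and it passed without RIBO_ESC replicate 2 (0.49, adjusted p = 0.0470).

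HES6 went the other way. It is a HES family member known to counteract HES1 and to favour neuronal differentiation. HES6 RNA was at 3.83, 4.59 and 4.58 CPM in NPC and 17.6, 21.6 and 5.06 CPM in ESC, a log2 difference of −1.77 ± 0.46 (adjusted p = 0.0121). The ESC libraries disagreed, RNA_ESC replicate 3 lying 1.85 below the mean of the others on the log2 scale, and without it the difference was −2.17. On ribosomes HES6 had 11.3, 8.14 and 7.98 CPM in NPC and 15.1, 21.7 and 15.1 CPM in ESC (log2 −0.91 ± 0.27, adjusted p = 0.0123). That call was lost without RIBO_NPC replicate 2 (adjusted p = 0.0547) or RIBO_NPC replicate 3 (adjusted p = 0.0590). HEY1, a Notch target best known from blood vessels and heart, had 5.00, 4.95 and 4.34 CPM in NPC RNA and 6.24, 4.95 and 5.52 CPM in ESC RNA, with no call (log2 −0.22 ± 0.16, adjusted p = 0.264). Ribosome-bound HEY1 was lower, with 4.52, 4.21 and 5.92 CPM in NPC and 10.4, 10.4 and 10.8 CPM in ESC (log2 −1.09 ± 0.30, adjusted p = 0.00786), from 55 counts in NPC and 97 in ESC.

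**Figure D2:**
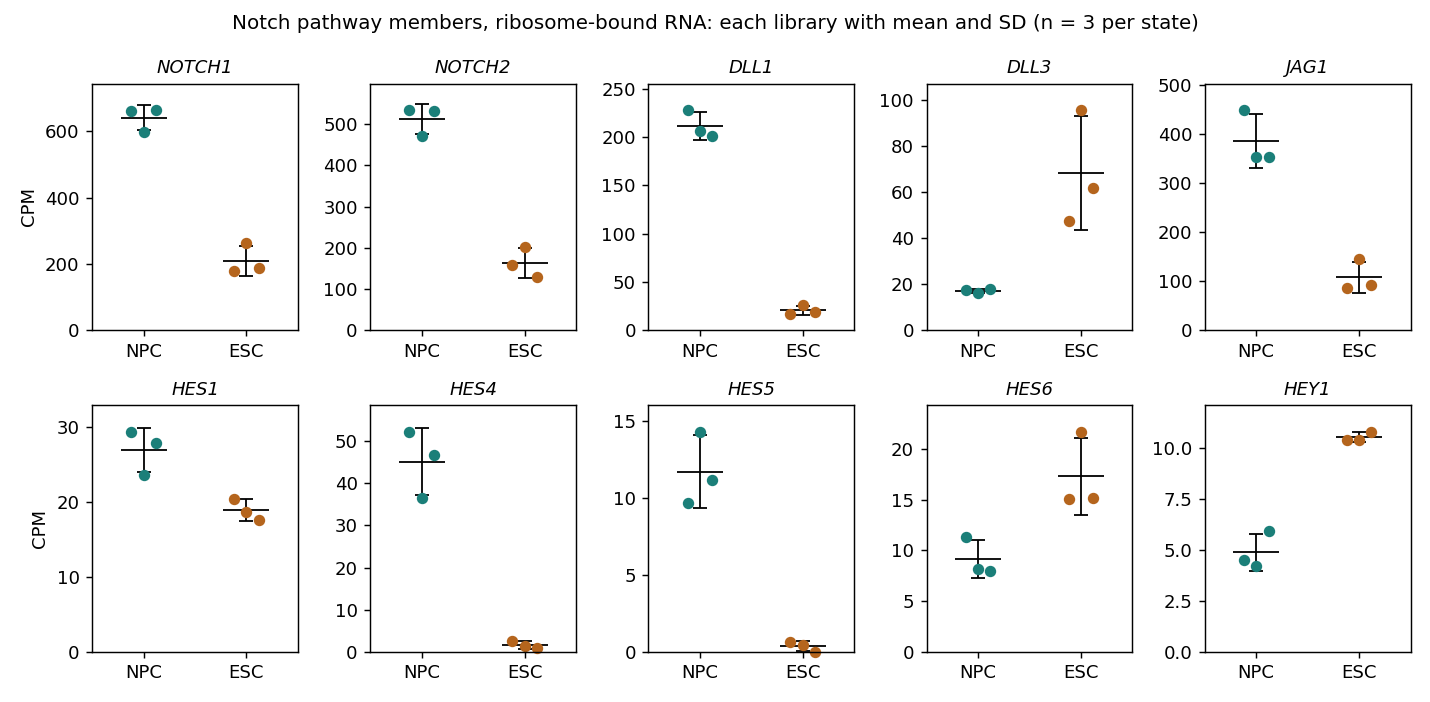
Ribosome-bound RNA level in CPM (linear axis from 0, its own scale per gene) of the 10 members in the 3 NPC and 3 ESC libraries, with bars for the mean and SD. All 10 genes have NPC libraries on 1 side of the ESC libraries, and DLL1 has the largest fold difference among the ligands shown, with 201 to 228 CPM in NPC and 16.3 to 25.6 CPM in ESC.

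Whether the ribosome-bound share of a message changed beyond its RNA was read from an assay-by-state interaction term, here called translational efficiency. It is relative to the other genes of the same library. DLL1 was higher by 1.504 ± 0.32 on the log2 scale (adjusted p = 0.00142), so that its ribosome-bound level over its RNA level was at a log2 of 1.00 in NPC and −0.54 in ESC. DLL3 was lower by 1.09 ± 0.32 (adjusted p = 0.0136), with levels of 1.79 in NPC and 2.88 in ESC. HEY1 was lower by 0.92 ± 0.32 (adjusted p = 0.0317), with levels of 0.03 in NPC and 0.86 in ESC. The DLL1 and DLL3 calls held with each of the 12 libraries left out in turn, whereas the HEY1 call was lost without RNA_ESC replicate 2 (adjusted p = 0.0676), RNA_NPC replicate 1 (0.0729) or 2 (0.0760), RIBO_ESC replicate 3 (0.0538) or RIBO_NPC replicate 1 (0.0663) or 2 (0.0710).

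Thus 3 of 10 members changed in efficiency, where 41.9% of 11866 genes did. Of the members 1 was higher, where 22.9% were, and 2 were lower, where 19.0% were, and the median over the members was −0.12 beside −0.05 over all genes. The remaining 7 did not pass, and their intervals are wide for the genes with few counts, such as HES5 at 0.98 ± 1.15. JAG1 was at −0.00 ± 0.27 (adjusted p = 0.994) and NOTCH2 at −0.25 ± 0.26 (adjusted p = 0.454). NOTCH1 at 0.61 ± 0.32 (adjusted p = 0.133) was called once RNA_ESC replicate 3 was left out (0.86, adjusted p = 0.00968) and likewise for RIBO_ESC replicate 2 (0.81, adjusted p = 0.03). HES6 at 0.78 ± 0.55 (adjusted p = 0.262) was called once RNA_ESC replicate 3 was left out (1.183, adjusted p = 0.00445).

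**Figure D3:**
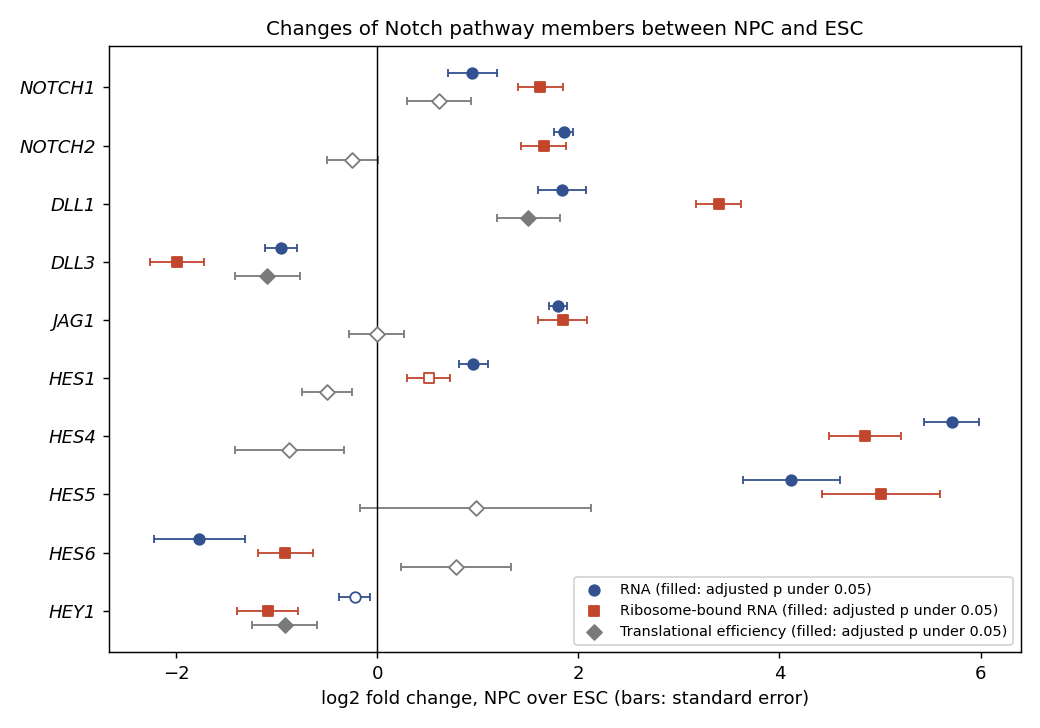
Log2 fold change of NPC over ESC (bars, SE) of each member in total RNA, ribosome-bound RNA and translational efficiency, filled where the adjusted p was under 0.05. HES4 and HES5 lie at 4.12 to 5.71 in RNA and on ribosomes, and DLL1 is the member with a higher efficiency, at 1.504.

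The rest of the pathway was examined in 9 lists by role, which hold 56 genes outside the set. Of the 54 tested in RNA, 19 were higher in NPC and 10 lower (median 0.14), where 26.4% and 26.2% of all genes were. Of the 49 tested on ribosomes, 27 were higher and 12 lower (median 0.65), where 31.6% and 30.3% of all genes were. In efficiency 18 were higher and 6 lower of 49 (median 0.24), where 22.9% and 19.0% of all genes were. With the members counted in, 3 of 4 receptors were higher and none lower in RNA, and 2 of 3 were higher on ribosomes. Of 4 ligands tested, 2 were higher and 1 lower in either assay. Of the other receptors, NOTCH3 was at 398 ± 42.7 CPM in NPC RNA and 259 ± 76.8 CPM in ESC RNA (SD, n = 3 each, log2 0.62 ± 0.22, adjusted p = 0.0408). On ribosomes NOTCH3 was at 283 ± 19.8 CPM in NPC and 409.3 ± 108 CPM in ESC, which did not pass (log2 −0.53 ± 0.23, adjusted p = 0.0579) but was called lower with RLE scaling, with DESeq2 and without RIBO_ESC replicate 2. Its efficiency was lower by 1.21 ± 0.31 (adjusted p = 0.00591). NOTCH4 and JAG2 did not pass in RNA (adjusted p = 0.191 and 0.755), and DLL4, at 0.208 ± 0.0527 CPM in NPC and 0.323 ± 0.211 CPM in ESC, was too low to test. Of 2 atypical ligands tested in RNA, 1 was higher and 1 lower, and on ribosomes the 1 tested, DLK1, was higher. DLK1, an atypical ligand without the Delta motif that binds receptors, was among the genes that changed most, at 90.3 ± 6.14 CPM in NPC RNA and 2.72 ± 0.779 CPM in ESC RNA (log2 5.05 ± 0.22, adjusted p = 1.32e-06). DNER was lower, at 1.36 ± 0.146 CPM in NPC RNA and 4.05 ± 0.286 CPM in ESC RNA (log2 −1.575 ± 0.17, adjusted p = 1.59e-04).

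In RNA, 5 of the 10 genes of the whole HES and HEY family were higher in NPC and 3 were lower, and on ribosomes 2 of 8 were higher and 5 lower. Of all genes tested 26.4% were higher and 26.2% lower in RNA, and 31.6% and 30.3% on ribosomes. Without RIBO_ESC replicate 2 the ribosome-bound counts were 5 higher and 5 lower of 10 tested. HES2 and HEYL, untested with all libraries, entered that count because the filter asks for fewer libraries when a group is smaller. Both entered through their NPC libraries, which selects for a higher NPC level. HES3 was lower at 6.09 ± 1.08 CPM in NPC RNA and 51.0 ± 22.4 CPM in ESC RNA (log2 −3.07 ± 0.35, adjusted p = 1.91e-04). It was also lower on ribosomes, at 24.4 ± 2.96 CPM in NPC and 347 ± 124 CPM in ESC (log2 −3.83 ± 0.28, adjusted p = 9.97e-07). HEY2 was lower in RNA by 2.94 ± 0.18 (adjusted p = 6.75e-06), while HEYL was higher by 2.68 ± 0.17 (adjusted p = 8.78e-06). The summed level of the 10 family genes ran from 104 to 117 CPM in NPC RNA and from 73.6 to 139 CPM in ESC RNA, so that the states overlapped in the RNA sum although most of these genes differed. On ribosomes the sum was apart and lower in NPC, at 124 to 153 CPM, against 331 to 580 CPM in ESC. Most of that ESC sum was HES3, at a mean of 347 CPM.

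Of 5 receptor glycosylation genes 2 were higher and none lower in RNA, where 26.4% and 26.2% of all genes were. The same 2 were higher on ribosomes, where 31.6% of all genes were, and none was called in efficiency. Both are Fringe glycosyltransferases, which shift a receptor's response between Delta and Jagged ligands. MFNG was at 12.9 ± 0.594 CPM in NPC RNA and 0.770 ± 0.406 CPM in ESC RNA (log2 4.01 ± 0.29, adjusted p = 1.78e-05), and LFNG at 58.4 ± 5.32 CPM in NPC RNA and 8.45 ± 2.81 CPM in ESC RNA (log2 2.78 ± 0.25, adjusted p = 5.19e-05). Of 8 cleavage genes 3 were higher and 2 lower in RNA, where 26.4% and 26.2% of all genes were. On ribosomes 2 were higher and 5 lower, where 31.6% and 30.3% of all genes were. In efficiency 5 were lower and none higher (19.0% of all genes were lower). APH1A, a scaffold subunit of gamma-secretase, had 31.5 ± 10.5 CPM in NPC and 139 ± 72.8 CPM in ESC on ribosomes, at an RNA level of 83.5 ± 4.21 CPM in NPC and 90.4 ± 24.7 CPM in ESC (efficiency −2.09 ± 0.44, adjusted p = 0.00140).

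In the nuclear complex RBPJ, the DNA-binding subunit, was lower in NPC, at 123 ± 7.94 CPM in NPC RNA and 223 ± 44.1 CPM in ESC RNA (log2 −0.85 ± 0.15, adjusted p = 0.00169) and by 1.26 ± 0.22 on ribosomes (adjusted p = 3.61e-04). Of the 16 genes of the complex and its corepressors, 3 were higher and 4 lower in RNA, 9 were higher and 3 lower on ribosomes, and 11 were higher and none lower in efficiency. Of all genes 26.4% were higher in RNA, 31.6% on ribosomes and 22.9% in efficiency. Without RNA_ESC replicate 3 the list had 5 higher and 6 lower in RNA, and 11 higher and 1 lower in efficiency. The largest rise in efficiency among these 16 was that of SPEN, a corepressor that binds RBPJ, which had 293 ± 8.52 CPM in NPC and 44.4 ± 23.4 CPM in ESC on ribosomes, at 153 ± 4.51 CPM in NPC RNA and 146 ± 15.7 CPM in ESC RNA (efficiency 2.60 ± 0.36, adjusted p = 5.31e-05). TLE4, a Groucho corepressor that HES proteins recruit, rose in both assays, to 352 ± 6.30 CPM in NPC RNA, against 58.8 ± 2.03 CPM in ESC RNA (log2 2.58 ± 0.09, adjusted p = 5.53e-07). TLE2, its relative, fell to 0.883 ± 0.190 CPM in NPC RNA, against 19.2 ± 7.26 CPM in ESC RNA (log2 −4.43 ± 0.36, adjusted p = 3.35e-05).

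Regulators of turnover and feedback were higher in 5 of 9 cases and lower in 1, DTX2, in RNA, and higher in 8 and lower in 1 on ribosomes, where 26.4% of all genes were higher in RNA and 31.6% on ribosomes. NRARP, a feedback inhibitor that the Notch complex itself induces, had no call in RNA, at 66.9 ± 3.26 CPM in NPC and 60.6 ± 13.6 CPM in ESC (adjusted p = 0.507). On ribosomes it was at 19.3 ± 7.13 CPM in NPC and 6.90 ± 2.10 CPM in ESC (log2 1.47 ± 0.34, adjusted p = 0.00262). Genes of ligand ubiquitination and endocytosis, which ligands need in order to signal, were higher in 2 of 6 cases in RNA and in 5 of 5 on ribosomes, and lower in none. The ribosome-bound count was 4 without RIBO_ESC replicate 2 and with DESeq2, and 3 with the replicate number as a block. Without RNA_ESC replicate 3 the RNA counts were 4 higher and 2 lower in this list, 4 higher and none lower of 5 glycosylation genes, and 3 higher and 4 lower of 8 cleavage genes.

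**Figure D4:**
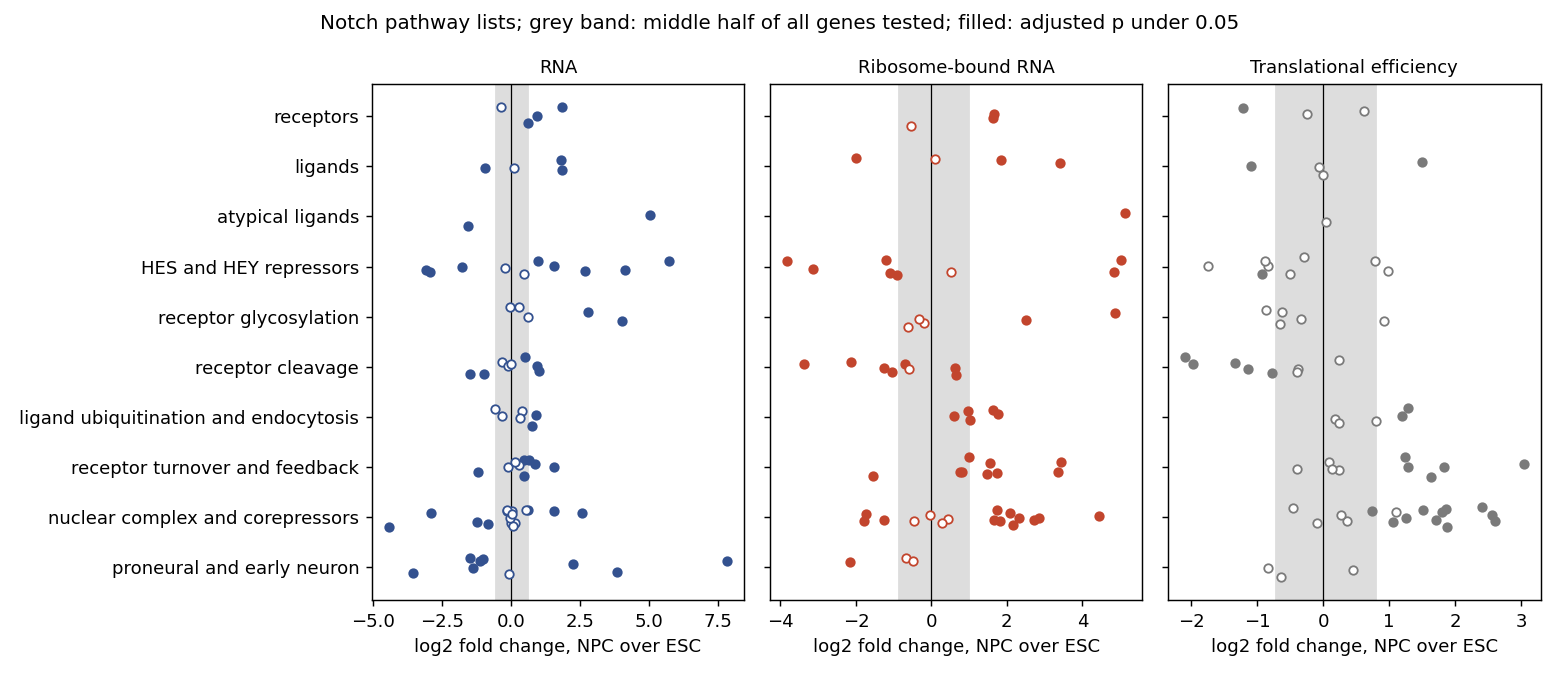
Log2 fold change of NPC over ESC for every tested gene of 10 lists (points, jittered in height), in total RNA, ribosome-bound RNA and translational efficiency, with the axes scaled separately. Filled points passed the test, the grey band runs from the lower to the upper quartile of all genes tested, and of the 16 nuclear genes 11 lie to the right as filled points in efficiency.

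Proneural genes, which HES proteins are known to repress, were read together with markers of early neurons. Of 13 proneural and early neuronal genes 9 could be tested in RNA, 3 being higher and 5 lower in NPC, and 3 on ribosomes, with 1 lower and none higher. Of all genes tested 26.4% were higher and 26.2% lower in RNA, and 31.6% and 30.3% on ribosomes. NEUROG2, a proneural factor of the dorsal neural tube, had 0 counts in all ESC libraries and 0.939 to 1.203 CPM in NPC RNA. The 3 genes higher in RNA, NEUROG2, NEUROD4 and ELAVL3, had ESC means of at most 0.235 CPM. They passed the filter through their NPC libraries, which selects for a higher NPC level, so the counts are descriptions. INSM1, a factor of newly formed neurons, was at 0.483 ± 0.225 CPM in NPC RNA and 5.53 ± 0.328 CPM in ESC RNA (log2 −3.54 ± 0.31, adjusted p = 4.58e-05). NEUROG1, NEUROD1 and ATOH1 were too low to test, with group means of at most 0.165 CPM in RNA. The summed level of the list was 15.6 to 17.1 CPM in NPC RNA and 28.3 to 34.7 CPM in ESC RNA.

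Several members also mark other cell types, whose own markers were read in the same libraries. Neural crest markers moved with the set, 5 of 6 being higher and FOXD3 lower in NPC RNA, with a summed level of 184.6 to 185.0 CPM in NPC and 8.48 to 18.7 CPM in ESC. Their part in the changes of the members was not tested. Over all genes tested, 26.4% were higher and 26.2% lower in RNA, which applies to each marker list here. In RNA, TFAP2B, PAX3 and PECAM1 passed the filter through their NPC libraries and MIXL1 through its ESC libraries, so these counts are descriptions. Presomitic and early mesoderm markers, which matter because DLL1 and DLL3 act in somites, summed to 2.63 to 3.66 CPM in NPC RNA and 5.88 to 9.82 CPM in ESC RNA, with 0 of 5 tested higher in NPC and 2 lower. With the replicate number as a block 1 of these was higher in RNA. Endothelial markers summed to 139.6 to 140.8 CPM in NPC RNA and 521 to 731 CPM in ESC RNA, a sum set by KDR, which was lower. The other 4 tested, PECAM1, CDH5, TEK and TIE1, were higher in NPC RNA at low levels, by 2.28, 2.08, 1.51 and 1.596 on the log2 scale (adjusted p from 1.90e-04 to 0.00266), and their part in the changes of the members was not tested. PECAM1, a defining marker, was at 0.699 ± 0.151 CPM in NPC and 0.146 ± 0.0626 CPM in ESC.

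Likeness to other genes was taken as the root mean square difference of log2 CPM, each gene centred on its own mean, over the 12 libraries and among 11724 genes that passed in both assays. The nearest gene to JAG1 was UNC5C, a netrin receptor, at 0.143, and the nearest to DLL1 was SCUBE3, a secreted protein, at 0.215. NOTCH2 lay nearest to ZIC1, a zinc finger factor of the dorsal neural tube, at 0.230, and NOTCH1 to UBE2L6 at 0.171. HEY1 lay nearest to MRPL10, a mitochondrial ribosomal protein, at 0.159, and to XBP1 at 0.163. DLL3 lay nearest to CCDC28B at 0.199, HES1 to RELT at 0.188 and HES6 to IGSF9 at 0.327. The widest gaps were those of HES4 and HES5, whose nearest genes were COL2A1 at 0.386 and SEZ6 at 0.567. The points share libraries and depth, and the measure is a description.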

How the data were processed

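The authors deposited raw counts per gene symbol, whole numbers without normalization, in a single table whose 12 columns each matched 1 sample title. Per the submitters' processing notes, cutadapt 1.18, Bowtie 1.2, STAR 2.7.1a and featureCounts 1.6.4 were used with hg38 and GRCh38. Their roles, the annotation, strand use, multi-mapping and how ribosome-bound RNA was isolated are not stated in the labels, so reads of overlapping genes cannot be assigned with certainty.

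Counts were tested with edgeR 4.0.16 in R 4.3.3 (TMM scaling, filterByExpr with a minimum count of 10, quasi-likelihood test, adjusted by Benjamini-Hochberg and called under 0.05). Each assay had its own fit, and translational efficiency was the interaction of assay and state over all 12 libraries, on genes that passed in both assays. The SE is the log2 fold change divided by the square root of F. An efficiency level divides the 2 group means in CPM, ribosome-bound by total, after adding 0.5 to either, on the log2 scale. A count of 0 allows up to 3 counts, or 0.0839 to 0.153 CPM in RNA and 0.684 to 1.30 CPM in ribosome-bound libraries. Ratios of summed counts have exact 95% binomial intervals.

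Alternatives were DESeq2 1.42.0, limma 3.58.1, RLE scaling, other filters, a joint fit, the replicate number as a block and leaving out libraries. In RNA, the deviations of same-numbered NPC and ESC libraries correlated at 0.185, 0.143 and 0.384, so the numbers may pair them. However, RNA_NPC replicate 1 correlated best with an ESC library of another number. The value of 0.384 involves RNA_ESC replicate 3, which differed from the other ESC libraries, so pairing is not settled. All 10 members are described. Of each pathway list the counts and chosen examples are given, the rule naming its largest rise and fall of at least 5 CPM; NOTCH3, HEY2, HEYL, LFNG, APH1A, NRARP, NEUROG2 and other genes beyond it were added after their values were seen. Members and lists were chosen with earlier results of these data known. Tests were checked on simulated data. Python 3.11.15 with pandas 2.3.3 and matplotlib 3.10.9 made tables and figures.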

Additional observations from a re-analysis of the deposited data

How the results depend on the processing

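The member counts in RNA (7 higher, 2 lower) were the same under every alternative run, and on ribosomes 6 to 7 were higher and 2 to 3 lower. HES1 on ribosomes passed with a minimum count of 50 (0.51, adjusted p = 0.0427) and in a joint fit of all 12 libraries (0.49, adjusted p = 0.0289), where HES6 did not (−0.94, adjusted p = 0.0618). In efficiency, 1 member was lower in place of 2 without a filter on low counts and with a minimum count of 50, which leaves HEY1 untested; with libraries left out singly 1 to 3 were higher and 1 to 2 lower. HES1 efficiency passed with DESeq2 (−0.56, adjusted p = 0.0454), which made 3 members lower. Leaving out RNA_ESC replicate 3 and RIBO_ESC replicate 2 together, chosen after seeing the data, gave 3 members higher, NOTCH1 (1.06) and HES6 (1.35) joining DLL1, and 3603 genes lower in place of 2254. JAG1 efficiency, near 0, changed sign under limma-voom (0.045), without a filter (0.041), without both libraries (0.22) and with single libraries left out (−0.14 to 0.27); the cause was not tested. HES5 RNA was 4.76 under limma-voom. With the replicate number as a block, 7 members were higher and 2 lower in RNA, 6 and 3 on ribosomes and 1 and 2 in efficiency, so no count of members changed; in RNA the block gave 3 higher glycosylation, 3 higher ubiquitination, 4 higher nuclear and 4 lower proneural list genes, and JAG1 efficiency was at 0.011. Ribosome-bound libraries with the same number did not deviate together (−0.176, −0.253 and −0.00773). Few counts limit HES5 and HES4 in ESC and HEY1 on ribosomes.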
